A study of Mus musculus with 15 samples.

Results

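Of the 93215 nuclear regions in a table of open chromatin from mouse liver cells, 12821 (13.75%) lay more than 50 kb from every protein-coding gene. They were chosen by position alone: the midpoint had to be over 50 kb from every RefSeq protein-coding gene body in mm10, the region had to be narrower than 5000 bp, and the mitochondrial chromosome was left out. A further 17 distal regions were wider than that and were not members. The study measured open chromatin by ATAC-seq, in which a transposase cuts accessible DNA, in cells sorted directly from mouse liver, with no growth in culture and no treatment after sorting. Its 15 libraries form 5 groups of 3: untreated hepatocytes, untreated biliary cells, and from mice given DDC, hepatocytes, reprogrammed hepatocytes and biliary cells. DDC is a compound widely used to injure the bile ducts of mice. The sources used here do not name the strain, age or sex, the dose or duration of DDC, the mark by which reprogrammed hepatocytes were recognised, or whether libraries came from separate animals. P-values therefore measure only the spread between these libraries, which may be technical.

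Chromatin far from genes opens mostly at enhancers, which are short stretches bound by transcription factors that act on promoters over distance, often within the same loop of the chromosome. Such elements differ more between cell types than promoters do, and the gene nearest to an enhancer is often, but not always, its target. In the liver, hepatocytes and the biliary cells that line the bile ducts arise from a common embryonic progenitor. HNF4A is a nuclear receptor that maintains hepatocyte identity, while factors such as SOX9 and the TEAD partners of YAP are associated with biliary cells. AP-1, a dimer of FOS and JUN proteins, binds enhancers that open in injured and stimulated cells. Bile duct injury is known to lead some hepatocytes to take on biliary features, a process commonly called reprogramming.

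A small share of the members coincides with the start of an annotated non-coding gene, and there the RefSeq reference (GRCm38.p6, which shares its coordinates with mm10) gives the sequence. Of 12821 members, 381 overlapped 452 promoter windows, all of long non-coding RNA genes, each window running from 250 bases before the gene's start to 50 bases after it. The 6 windows below are shown because the regions that hold them stand for the patterns described in the results. The first 3 carry the AP-1 motif TGANTCA (whose form is the same on both strands) and lie in regions higher in DDC biliary cells and reprogrammed hepatocytes. Gm32646 carries the HNF4 motif CAAAGTCCA (searched on both strands) in a region lower in them than in DDC hepatocytes. The last 2 have neither motif but many CpG dinucleotides. Capitals mark the motif matches, or the CpG dinucleotides in the last 2, and all sequences run 5′ to 3′ along the gene's strand.
Gm30657, chr5:118413532-118413831, minus strand: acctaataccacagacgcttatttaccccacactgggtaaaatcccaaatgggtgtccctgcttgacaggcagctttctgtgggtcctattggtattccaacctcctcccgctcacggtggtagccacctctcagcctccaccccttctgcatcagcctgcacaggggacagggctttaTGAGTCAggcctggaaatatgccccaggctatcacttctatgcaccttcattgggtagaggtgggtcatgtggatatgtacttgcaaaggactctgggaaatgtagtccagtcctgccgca
A530046M15Rik, chr13:15806993-15807292, plus strand: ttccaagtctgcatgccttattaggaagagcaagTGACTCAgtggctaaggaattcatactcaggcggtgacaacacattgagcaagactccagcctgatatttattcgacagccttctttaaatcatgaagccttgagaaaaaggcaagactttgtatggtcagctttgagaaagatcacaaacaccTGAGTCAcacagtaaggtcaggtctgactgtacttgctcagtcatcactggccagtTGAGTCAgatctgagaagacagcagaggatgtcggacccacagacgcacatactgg
Morrbid, chr2:128429302-128429601, minus strand: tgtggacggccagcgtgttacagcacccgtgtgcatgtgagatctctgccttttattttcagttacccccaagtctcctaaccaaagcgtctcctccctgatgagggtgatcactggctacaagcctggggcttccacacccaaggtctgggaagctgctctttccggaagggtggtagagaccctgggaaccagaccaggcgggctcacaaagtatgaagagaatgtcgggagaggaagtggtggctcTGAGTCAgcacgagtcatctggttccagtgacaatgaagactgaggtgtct
Gm32646, chr6:98402569-98402868, plus strand: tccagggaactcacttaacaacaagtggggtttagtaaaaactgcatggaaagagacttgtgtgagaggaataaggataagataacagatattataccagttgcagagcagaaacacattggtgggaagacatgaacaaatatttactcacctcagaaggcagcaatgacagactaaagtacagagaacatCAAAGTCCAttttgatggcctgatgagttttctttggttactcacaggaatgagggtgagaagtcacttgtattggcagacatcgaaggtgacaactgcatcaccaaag
Zmiz1os1, chr14:25378463-25378762, minus strand: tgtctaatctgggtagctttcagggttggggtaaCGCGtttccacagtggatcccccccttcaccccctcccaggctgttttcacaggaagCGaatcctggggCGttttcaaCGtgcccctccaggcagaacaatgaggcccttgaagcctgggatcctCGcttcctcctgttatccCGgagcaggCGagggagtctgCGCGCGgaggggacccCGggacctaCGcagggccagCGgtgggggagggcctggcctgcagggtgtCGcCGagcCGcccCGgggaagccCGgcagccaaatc
Gm26901, chr1:7398047-7398346, minus strand: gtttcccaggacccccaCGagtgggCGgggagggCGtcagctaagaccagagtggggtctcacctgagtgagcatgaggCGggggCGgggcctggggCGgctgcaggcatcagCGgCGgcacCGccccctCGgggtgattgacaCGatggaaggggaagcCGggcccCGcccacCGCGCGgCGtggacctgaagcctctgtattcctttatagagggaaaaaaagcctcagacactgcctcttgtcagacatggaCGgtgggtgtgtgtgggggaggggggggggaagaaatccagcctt

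The Gm30657 window has 1 AP-1 match, which starts at base 180, counted from 1 at the window's 5′ end. In A530046M15Rik 3 matches start at bases 35, 189 and 245, and in Morrbid 1 match starts at base 250. The HNF4 match of Gm32646 starts at base 192. The Zmiz1os1 window holds 19 CpG dinucleotides and the Gm26901 window 18, against a median of 4 in the 452 windows on members and of 7 in all promoter windows.

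Members were narrower and weaker than the rest of the open chromatin. Their median width was 568 bp, against 738 bp in the 80394 other regions, and they ran from 179 to 4935 bp and covered 9538.5 kb in all. Levels are given in nuclear RPM, reads per 1000000 nuclear reads, that is, the deposited values rescaled to that total in each library without the mitochondrial chromosome. The median over members of the mean level of the 5 groups was 2.55 nuclear RPM, against 3.54 in the other regions. A mean of at least 10 nuclear RPM was reached by 1641 members (12.8%), against 25.7% of the others. At least 50 was reached by 71 members, and the highest value of any member in a single library was 260 nuclear RPM. These are descriptions of the peak set, and no test was made between members and other regions.

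The median distance to the nearest protein-coding gene was 126.9 kb. There were 4918 members at 50 to 100 kb, 3995 at 100 to 200 kb, 3014 at 200 to 500 kb and 894 beyond 500 kb, of which 204 lay beyond 1 Mb. The rule's edge did not fall at a break in the regions: the nearest member had its midpoint at 50010 bp and the nearest region left out at 49988 bp, and the 840 regions at 45 to 50 kb had a median width of 617 bp, against 614.5 bp for the 750 at 50 to 55 kb. Members fell into 1850 intervals between neighbouring protein-coding genes, with a median of 4 members, and 134 intervals with at least 20 members held 3922 of them. They made up between 6.81% of the regions of a chromosome (174 of 2556 on chromosome 19) and 22.6% (952 of 4221 on chromosome 13), apart from chromosome Y with 6 of 18. Of all members, 2947 (23.0%) lay inside a non-coding gene, 2830 of them in a long non-coding RNA gene.

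Depth differed greatly between groups and sets what can be seen in them. Nuclear reads per library ran from 201705 to 605309 in untreated hepatocytes, 2439831 to 4389653 in untreated biliary cells, 1191409 to 2342643 in DDC hepatocytes, 4756891 to 9829886 in reprogrammed hepatocytes and 5151190 to 10395918 in DDC biliary cells. The median member held 0 or 1 read in an untreated hepatocyte library, 2 to 4 in a DDC hepatocyte library and 12 to 24 in the reprogrammed and DDC biliary libraries. A group total of 3 reads, used here as the floor for a region with no read, stands for 2.88 nuclear RPM in untreated hepatocytes, 0.317 in untreated biliary cells, 0.534 in DDC hepatocytes, 0.127 in reprogrammed hepatocytes and 0.116 in DDC biliary cells, and covers counting error only. The group labels matched the summed level at regions assigned to cell-type genes. At 7 hepatocyte genes this sum was 4066 to 5776 nuclear RPM in untreated hepatocytes and 2895 to 4136 in DDC hepatocytes, against 561 to 1297 in untreated biliary cells, 565 to 1113 in reprogrammed hepatocytes and 378 to 773 in DDC biliary cells. At 8 biliary genes it was 1119 to 1232, 816 to 930 and 1152 to 1290 in the last 3 of these groups, and 258 to 421 in the libraries of both hepatocyte groups. The highest hepatocyte sum among untreated biliary libraries, 1297 in replicate 1 against 605 and 561, goes with higher values of that library at several hepatocyte-high members below, and its part in those results was not tested. Sums at markers of macrophages, endothelial cells, lymphocytes, stellate cells and neutrophils averaged 9.57 to 249 nuclear RPM in every group, with regions found for 3 of 6, 6 of 6, 4 of 6, 6 of 6 and 4 of 6 genes, and S100a8 had no read in untreated hepatocytes.

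Together the members drew between 5.41% and 8.08% of the nuclear reads of a library. The share was 8.08%, 7.14% and 7.93% in untreated hepatocytes (7.72% ± 0.504, SD, n = 3) and 6.16%, 6.12% and 5.93% in untreated biliary cells (6.07% ± 0.125, SD, n = 3). In DDC hepatocytes it was 6.07%, 6.35% and 6.68% (6.37% ± 0.302, SD, n = 3), in reprogrammed hepatocytes 6.48%, 5.41% and 6.85% (6.25% ± 0.745, SD, n = 3) and in DDC biliary cells 6.89%, 6.84% and 6.74% (6.82% ± 0.0768, SD, n = 3). The 3 untreated hepatocyte libraries were the highest of all, and replicate 2 of the reprogrammed hepatocytes stood below every other library. No comparison of the share passed an exact two-sided permutation test. Biliary cells differed from hepatocytes by -0.594 points within treatment (exact permutation p = 0.15, with -1.65 in untreated and 0.457 in DDC cells) and DDC from untreated cells by -0.299 points within cell type (exact permutation p = 0.44), where 0.005 was the smallest p possible. Reprogrammed hepatocytes differed from DDC hepatocytes by -0.118 points (exact permutation p = 0.9) and from DDC biliary cells by -0.575 points (exact permutation p = 0.3), where 20 arrangements cannot give a p below 0.1. Without replicate 2 the first of these was 0.299 points and without DDC hepatocyte replicate 3 it was 0.0373. The DDC difference had opposite signs in the cell types, -1.35 points in hepatocytes and 0.753 in biliary cells, and that difference was not tested. In bulk libraries, opening in fewer cells and less opening per cell cannot be told apart.

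**Figure D1:**
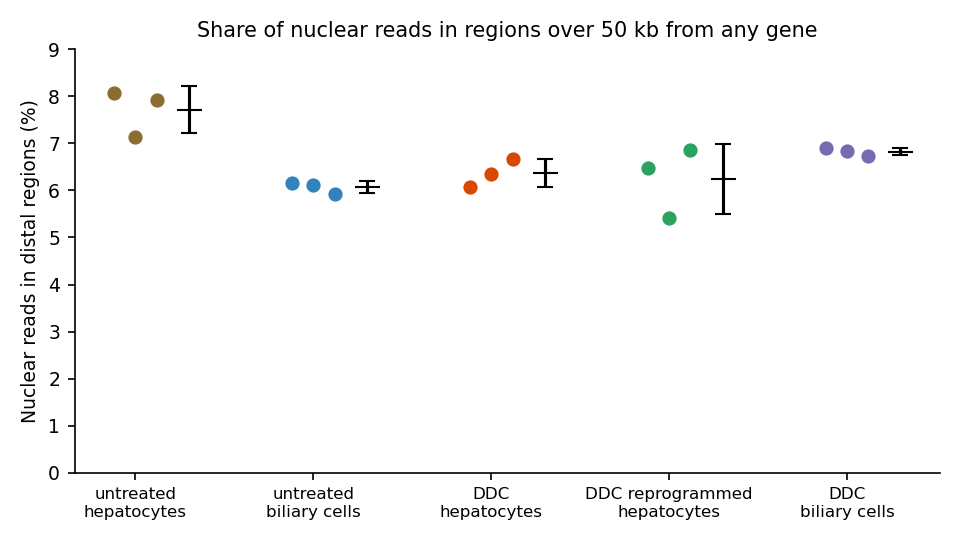
Percent of each library's nuclear reads (y axis, from 0) that fell in regions over 50 kb from any protein-coding gene, for the 5 groups (x axis), with 1 point per library and beside them a horizontal line for the group mean with error bars of 1 SD (n = 3). The untreated hepatocytes sit between 7.14% and 8.08%, all above the other 12 libraries, which lie between 5.41% and 6.89%.

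Thinning every library to the smallest total, 201705 nuclear reads, put the groups on equal depth. Members with a read were then 33.9%, 36.8% and 34.8% in untreated hepatocytes, 42.5%, 38.1% and 37.4% in untreated biliary cells, 36.2%, 37.1% and 37.5% in DDC hepatocytes, 42.7%, 37.3% and 44.3% in reprogrammed hepatocytes and 43.2%, 44.4% and 43.2% in DDC biliary cells. Without thinning, the ranges were 33.9% to 50.3%, 81.3% to 88.1%, 62.5% to 73.3%, 94.1% to 97.1% and 94.8% to 96.9%. At equal depth biliary cells exceeded hepatocytes by 5.41 points within treatment (exact two-sided permutation p = 0.005, the smallest possible) and DDC exceeded untreated cells by 3.04 points within cell type (exact permutation p = 0.01). Even numbers made up 75.6% to 82.4% of the values of 1 to 20 reads in untreated hepatocytes, but only 55.2% to 56.7% in DDC biliary cells. In reprogrammed hepatocytes they made up 53.6% to 66.1%, lowest in replicate 1, whose read step is hard to tell from rounding. Reads in pairs are thus plain in the shallow libraries and less so in the deeper ones. When the reads of every library were taken as pairs and whole pairs were drawn, the differences were -0.738 (exact permutation p = 0.615) and -0.871 points (exact permutation p = 0.56). The differences in members with a read therefore did not hold under both ways of thinning. Reprogrammed hepatocytes exceeded DDC hepatocytes by 4.48 points (exact permutation p = 0.2) and were 2.19 points below DDC biliary cells (exact permutation p = 0.4).

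The higher share of reads in untreated hepatocytes was found at every distance. The share drawn by members beyond 500 kb averaged 0.512% in untreated hepatocytes and 0.278% to 0.328% in the other groups, and that of members at 50 to 100 kb averaged 3.16% against 2.59% to 3.05%. These libraries were also the shallowest, and the part of depth in this was not tested.

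Strongly open members were more uneven between groups than other regions. Among the 3635 members with a mean of at least 5 nuclear RPM, the 4 deeper group means (all but untreated hepatocytes) were compared. The bound was set on the mean of all 5 groups, so a region could pass it through untreated hepatocytes, which were then left out. The part of this in the shares below was not tested. The highest was more than 4 times the lowest in 1558 (42.9%), against 25.5% of other regions above the same bound. Only 289 members (7.95%) stayed within 1.5-fold across these groups, against 26.1%. The median ratio of highest to lowest group mean was 3.45 in members and 2.11 in other regions. DDC hepatocytes were the highest group in 1551 members (42.7%, against 36.5% of other regions) and the lowest in 1308, so they stood at 1 end or the other more often than the rest. Biliary cells were highest in 841 (DDC) and 819 (untreated), and reprogrammed hepatocytes in 424 (11.7%, against 17.4%). These shares are descriptions, and the shallower groups also have the larger counting error. Members and other regions were not matched in level above the bound. A mean of 20 nuclear RPM or more was reached by 538 of these members and by 12283 of about 32550 other regions.

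The 6 most open members varied little between groups. The highest, chr1:7395517-7398912 between Pcmtd1 and Sntg1, holds the start of the non-coding gene Gm26901, whose CpG-rich window is printed above. It gave 149, 152 and 234 nuclear RPM in untreated hepatocytes, 167, 210 and 257 in untreated biliary cells, 116, 130 and 198 in DDC hepatocytes, 119, 162 and 135 in reprogrammed hepatocytes, and 132, 121 and 121 in DDC biliary cells. All groups lay within about the same range except that the DDC biliary libraries were below every untreated library, and against untreated biliary cells they were lower (log2 difference -0.73, SE 0.165, adjusted p = 0.0032 by limma over all nuclear regions). Of the 6 members with the highest mean, 4 were lower in DDC than in untreated biliary cells, by -0.48 to -0.85 on the log2 scale, and none of the 6 was called in any of the other 5 comparisons. They include chr8:126734576-126737434 near Irf2bp2, a transcriptional corepressor (mean 122 nuclear RPM, log2 difference -0.85, adjusted p = 0.00192). Also among the 6 are chr14:115040082-115042905, 50.7 kb from the glypican gene Gpc5 (mean 142), and chr1:23253996-23258013 near Ogfrl1 (mean 136).

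The first comparison asks how untreated biliary cells differ from untreated hepatocytes. Among the named members, biliary cells had higher signal at regions whose nearest genes are Pdzrn3, Diras2, Ndfip2 and Zmiz1, and lower signal at regions whose nearest genes are Gpc5, Ptger3 and Gimd1. Differences are given as log2 differences of (nuclear RPM + 1) from limma, with Benjamini-Hochberg adjusted p-values over all regions tested and a call at 0.05. Of 9230 members tested, 1975 were called, 1287 higher and 688 lower in biliary cells, which is 13.9% and 7.45% of the members tested, against 11.8% and 5.74% of all nuclear regions (17.5% called in all). The level of the region and the shallow hepatocyte libraries weigh on this count. Among members under 2 nuclear RPM 378 were higher and 6 lower, while between 5 and 20 nuclear RPM 354 were higher and 449 lower and above 20 nuclear RPM 73 were higher and 113 lower. When all libraries were thinned to the same depth, 257 were higher and 274 lower, and without untreated biliary replicate 2 or 3 the count was 1062 or 1071. On the values as deposited, with mitochondrial reads in the total, 3274 were higher and 208 lower, with the median of all regions moved from 0.29 to 1.45, and with TMM scaling 1652 were higher and 488 lower (median of all regions 0.72). The direction of the count as a whole thus turns with the processing, and the regions below are those with the largest differences.

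At chr6:101472704-101474044, 95.5 kb from Pdzrn3, which encodes a ubiquitin ligase, untreated biliary libraries gave 69.5, 104 and 105 nuclear RPM and the untreated hepatocytes no read. Set against the floor of 3 reads over the hepatocyte group, the level was at least 32.9-fold higher in biliary cells (log2 difference 6.53, SE 0.458, adjusted p = 0.0244). The same region gave 4.27, 1.92 and 3.36 in DDC hepatocytes, 15.6, 14.6 and 9.46 in reprogrammed hepatocytes, and 36.7, 41.4 and 22.2 in DDC biliary cells. The reprogrammed hepatocytes lay between the DDC hepatocytes and both biliary groups without overlap, while the untreated hepatocytes, with a floor of 2.88 nuclear RPM, cannot be ranked against the DDC hepatocytes. At chr13:52338829-52339910, between the stress-response gene Gadd45g and Diras2, the nearer at 165.0 kb, the untreated biliary libraries gave 51.4, 91.0 and 71.8, again with no read in untreated hepatocytes, at least 24.7-fold higher (log2 difference 6.14, adjusted p = 0.0244). Here the reprogrammed hepatocytes, at 44.9, 50.3 and 37.8, overlapped the DDC biliary cells at 55.7, 50.5 and 46.4. The region chr14:105588155-105590014 lies between Ndfip2 and Spry2, an inhibitor of receptor tyrosine kinase signalling. It gave 83.1, 76.6 and 102 in untreated biliary cells and 1 read in all in untreated hepatocytes, and 64.9, 54.5 and 41.6 in reprogrammed hepatocytes against 5.12, 1.92 and 3.36 in DDC hepatocytes. DDC biliary cells, at 97.3, 74.5 and 83.2, lay above the reprogrammed hepatocytes there without overlap.

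The member at the start of Zmiz1os1, chr14:25376852-25379453, had its highest group mean in DDC biliary cells. It lies 79.7 kb from Zmiz1, which encodes a transcriptional coregulator that works with Notch1. Untreated hepatocytes gave no read in a total of 1041881, and untreated biliary libraries 49.9, 42.6 and 46.2 nuclear RPM, at least 16.1-fold higher. DDC hepatocytes gave 19.6, 10.5 and 10.1, reprogrammed hepatocytes 65.0, 58.5 and 42.3, and DDC biliary cells 64.7, 72.6 and 60.9. Reprogrammed exceeded DDC hepatocytes without overlap (log2 difference 2.0, adjusted p = 7.15e-07). The whole interval between Rps24 and Zmiz1 holds 52 members. Summed over them the level was 154, 193 and 166 in untreated hepatocytes, 324, 291 and 290 in untreated biliary cells, 286, 242 and 276 in DDC hepatocytes, 408, 371 and 316 in reprogrammed hepatocytes, and 391, 417 and 350 in DDC biliary cells. The difference between reprogrammed and DDC hepatocytes was 0.44 (SE 0.122, adjusted p = 0.00829), and its call was lost without reprogrammed replicate 1 (adjusted p = 0.0568). In this comparison 16 members were higher and 3 lower, where 26.1% of all members tested were higher and 16.8% lower.

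Members higher in hepatocytes showed the reverse. At chr3:157742908-157743621, between the prostaglandin receptor gene Ptger3 (98.5 kb) and Cth (151 kb), which encodes an enzyme of cysteine synthesis, untreated hepatocytes gave 59.5, 52.9 and 42.6 nuclear RPM and untreated biliary cells 5.29, 0 and 0 (log2 difference -4.82, SE 0.803, adjusted p = 0.0247, a call lost when libraries were thinned to equal depth). DDC hepatocytes kept 16.2, 33.5 and 18.5, while reprogrammed hepatocytes gave 0.877, 1.22 and 2.10 and DDC biliary cells 0.385, 2.52 and 1.76. Both DDC hepatocytes and untreated hepatocytes were thus above all libraries of the other 3 groups. Untreated biliary replicate 1, the library with the highest hepatocyte marker sum, supplied all the reads of its group. At chr3:132565793-132566236, 63.8 kb from Gimd1 and 385.7 kb from the Wnt regulator gene Dkk2, untreated hepatocytes gave 44.6, 38.0 and 68.1 and biliary cells 3.78, 0 and 0.911 (log2 difference -4.57, SE 0.678, adjusted p = 0.0246). The most remote of these lies 1029.5 kb from any protein-coding gene, between Slitrk5 and Gpc5 at chr14:114062309-114063183. It gave 59.5, 52.9 and 119 in untreated hepatocytes and 9.45, 0 and 0 in untreated biliary cells, and its call (log2 difference -5.06, adjusted p = 0.0255) was lost without untreated biliary replicate 2 or 3. In DDC cells it stayed higher in hepatocytes, at 33.3, 57.0 and 58.8, than in reprogrammed hepatocytes, at 9.32, 12.1 and 16.0, and biliary cells, at 2.02, 5.44 and 2.35.

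Summed over intervals, fewer were higher than lower in untreated biliary cells. Of 1716 intervals tested 409 were called, 134 higher and 275 lower (background 18.5% of all genes and intervals, 10.1% higher and 8.46% lower), and on the deposited values 947 were higher and 27 lower. The count fell to 194, 64 and 55 without untreated biliary replicates 1, 2 and 3 in turn. The interval between Zfp352 and Elavl2, an RNA-binding protein gene, gave 104, 81.0 and 115 nuclear RPM in untreated hepatocytes and 14.7, 0.410 and 0.911 in biliary cells (log2 difference -4.84, adjusted p = 0.0117, lost without untreated biliary replicate 2 or 3). That between Ptger3 and Cth gave 84.3, 114 and 115 against 17.0, 2.46 and 3.64 (log2 difference -3.98, adjusted p = 0.00763, and 0.0551 without untreated biliary replicate 3).

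DDC against untreated hepatocytes gave no called member. With 8317 members tested, limma called 0 (background 0%), 1260 had an unadjusted p under 0.05, and edgeR's quasi-likelihood test on the recovered reads called 94 higher and 50 lower. The same held for the 1671 intervals tested, with 0 called by limma (background 0.00576%), 331 at an unadjusted p under 0.05, and 14 higher and 68 lower by edgeR. The comparison rests on the shallowest libraries, so a count of 0 does not show that no member changed. It also depended on the model: a fit of all 15 libraries called 1230 members and 290 intervals. That fit shares its spread with the deeper groups, which may be too small for these libraries, so some of its calls may be false.

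DDC biliary cells were compared with untreated biliary cells to ask what DDC changed within that cell type. More members were higher than lower: of 10415 tested, 2053 were called, 1537 higher and 516 lower, or 14.8% and 4.95%, against 11.5% and 3.77% of all nuclear regions (15.3% called). Regions that rose lie in the intervals beside Nek7, Atxn1 and Pbx3. At chr1:138348197-138349173, between Atp6v1g3 (59.2 kb) and Nek7 (135 kb), a kinase required by the NLRP3 inflammasome, the untreated biliary libraries gave 0, 1.64 and 1.82 nuclear RPM and the DDC biliary libraries 40.6, 31.4 and 43.3 (log2 difference 4.32, SE 0.407, adjusted p = 2.27e-07). Reprogrammed hepatocytes were nearly as high, at 30.1, 29.7 and 28.0, and DDC hepatocytes gave 7.68, 5.75 and 1.68. The 4 members of that interval summed to 5.29, 6.15 and 3.87 in untreated and 58.1, 42.7 and 70.7 in DDC biliary cells (log2 difference 3.24, SE 0.254, adjusted p = 3.07e-07).

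Pbx3 encodes a homeodomain partner of HOX proteins, and a member 140.5 kb from it was higher with DDC. In the non-coding gene C230014O12Rik between Mvb12b and Pbx3, chr2:34029757-34032079 gave 0.756, 0.820 and 1.37 untreated and 27.3, 29.1 and 29.2 with DDC (log2 difference 3.91, SE 0.318, adjusted p = 2.33e-08). DDC hepatocytes also carried signal there, at 14.5, 23.0 and 8.39, below the 30.0, 29.4 and 33.0 of the reprogrammed hepatocytes. Lying 78.7 kb from Atxn1, a transcriptional regulator gene, chr13:46043116-46044291 gave 2.27, 0 and 0.911 untreated and 35.7, 17.9 and 32.3 with DDC (log2 difference 3.95, SE 0.375, adjusted p = 2.42e-07), and all 3 reprogrammed libraries lay between 30.3 and 30.9.

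Fewer members fell. Between Serpinb8 and the cadherin gene Cdh7, 677.7 kb from the nearer of them, chr1:108286272-108287172 gave 9.45, 18.0 and 28.5 in untreated and 0.866, 1.55 and 0 in DDC biliary cells (log2 difference -3.42, SE 0.486, adjusted p = 3.25e-05). Between the small GTPase gene Rap1b and Mdm1, chr10:118043557-118044282 gave 8.31, 24.2 and 22.1 against 2.21, 0.388 and 1.08 (log2 difference -3.06, adjusted p = 0.000136). Of 1759 intervals, 464 were called, 342 higher and 122 lower (background 18.1%, 11% higher and 7.04% lower), and 445 higher and 85 lower on the deposited values. Among intervals the summed level fell between Rims1 and Ppp1r14bl from 66.5, 100 and 105 to 16.2, 26.8 and 10.7 (log2 difference -2.34, adjusted p = 0.00104). It rose between Tnfsf18 and Fasl, genes of 2 ligands of the tumour necrosis factor family, from 4.91, 4.10 and 1.14 to 29.3, 17.9 and 29.1 (log2 difference 2.69, SE 0.378, adjusted p = 0.000107). The member count was 1082 without DDC biliary replicate 1, 1106 without replicate 3 and 1363 without untreated biliary replicate 3.

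The balance of higher and lower members changed with distance from genes. In gene bodies 9.56% of regions were higher and 3.89% lower in DDC than in untreated biliary cells, and within 50 kb of a gene 13.8% and 2.65%. Members at 50 to 100 kb were higher in 15.9% and lower in 4.06%, and those at 200 to 500 kb in 13.0% and 5.50%. Beyond 500 kb, 58 of 679 members were higher (8.54%) and 64 lower (9.43%), the only distance class of this comparison in which more fell than rose. No test was made across distance classes.

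**Figure D2:**
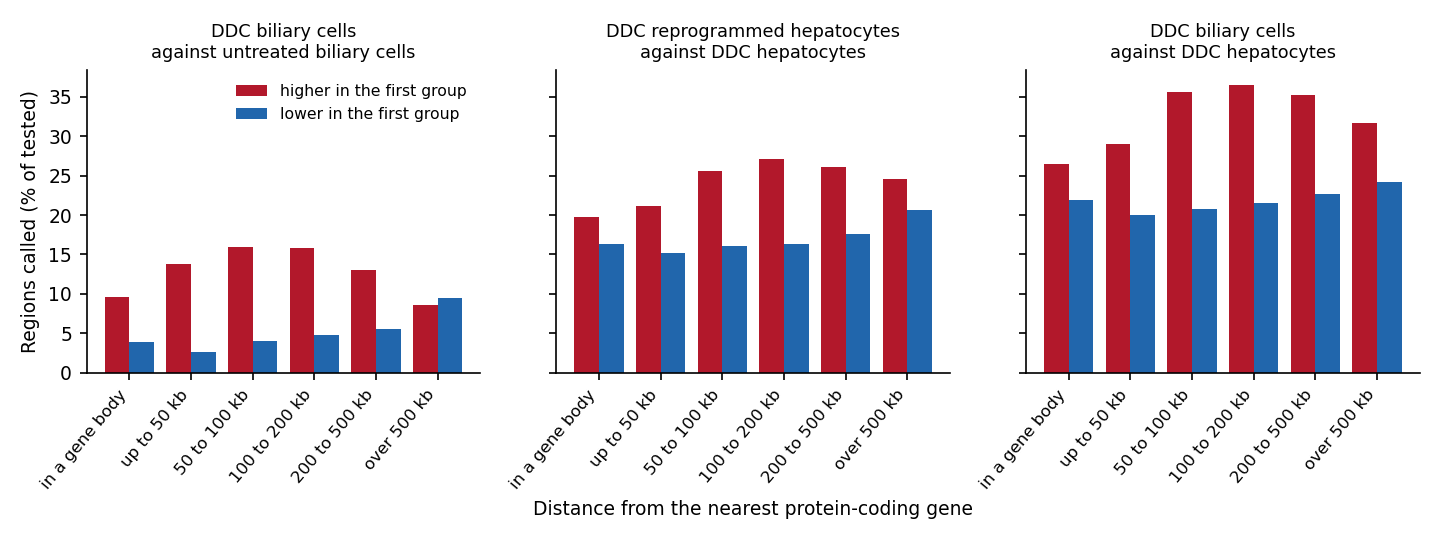
Percent of tested regions called higher (red) and lower (blue) at an adjusted p under 0.05 (y axis) by distance of the region from the nearest protein-coding gene (x axis), in the 3 comparisons between DDC biliary and untreated biliary cells, reprogrammed and DDC hepatocytes, and DDC biliary cells and DDC hepatocytes. Beyond 500 kb the first comparison has 8.54% higher and 9.43% lower, while in the other comparisons the higher share stays above the lower at every distance shown.

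Reprogrammed hepatocytes were compared with the DDC hepatocytes of the same treatment. Of 10415 members tested, 4469 were called, 2719 higher and 1750 lower in reprogrammed hepatocytes, against a background of 37.3% of all nuclear regions (21.2% higher and 16.2% lower). The higher share of the calls was 60.8%, and 74.2% on the deposited values (3565 higher and 1238 lower). The nearest genes of the members that rose most are Arap3, Tbc1d1, Serp2 and Adm, and of those that fell most Zfpm2, Lef1, Zic1 and Dusp6. All 8 kept their calls when any single library was left out.

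At chr18:38080200-38082875, between Arap3, a regulator of small GTPases, and the protocadherin gene Pcdh1, DDC hepatocytes gave 1.71, 1.92 and 0 nuclear RPM and reprogrammed hepatocytes 56.2, 44.7 and 40.2 (log2 difference 4.58, SE 0.379, adjusted p = 1.02e-08). DDC biliary cells were higher still, at 77.9, 50.7 and 63.8, whereas untreated biliary cells gave only 3.78, 12.3 and 5.92. Untreated hepatocytes gave 19.8, 3.30 and 8.52 from few reads, so the DDC biliary and reprogrammed libraries lay above all libraries of the other 3 groups. By contrast chr5:64508123-64509391, 157 kb from Tbc1d1, a regulator of glucose transporter traffic, was open in biliary cells of either kind. It gave 27.2, 30.3 and 37.1 in untreated and 49.6, 45.0 and 35.8 in DDC biliary cells, 31.1, 29.1 and 23.5 in reprogrammed hepatocytes, and 0.854, 0.958 and 0 in DDC hepatocytes (reprogrammed against DDC hepatocytes 4.23, SE 0.295, adjusted p = 9.77e-10). Between Serp2 (218.5 kb) and Lacc1 (246 kb), the gene of an enzyme of inflammatory macrophages, chr14:76774936-76776193 gave 4.27, 1.92 and 0 in DDC hepatocytes and 43.8, 34.3 and 38.3 in reprogrammed hepatocytes (log2 difference 3.99, SE 0.438, adjusted p = 3.93e-07).

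The interval between Adm, which encodes the vasodilator peptide adrenomedullin, and Ampd3 was higher as a sum in reprogrammed than in DDC hepatocytes. Most of the reprogrammed level came from its strongest member, chr7:110688794-110690034. That member gave 1.71, 1.92 and 0 in DDC hepatocytes and 38.6, 24.1 and 28.2 in reprogrammed hepatocytes (log2 difference 3.95, SE 0.371, adjusted p = 5.49e-08). The 5 members together gave 2.56, 3.83 and 0 against 60.2, 39.2 and 47.5 (log2 difference 4.25, SE 0.404, adjusted p = 3.7e-07). Between Unc93a2 and Fndc1, 6 of 7 members were higher, and their sum was 4.70, 2.39 and 0 in DDC hepatocytes against 45.8, 35.0 and 28.0 in reprogrammed hepatocytes (log2 difference 3.77). Of 1759 intervals, 802 were called, 460 higher and 342 lower (background 36.2%, 22.1% higher and 14% lower), and 762 higher and 198 lower on the deposited values.

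Zfpm2 encodes a cofactor of GATA factors, and a member 215 kb from it was open in hepatocytes. Its region chr15:40439052-40440506 gave 29.7, 14.9 and 42.6 in untreated hepatocytes, 9.82, 15.3 and 27.7 in DDC hepatocytes and 0.219, 0 and 0.420 in reprogrammed hepatocytes (log2 difference -3.84, SE 0.531, adjusted p = 8.31e-06). At chr10:99356162-99357954, 89.6 kb from Dusp6, a phosphatase that restrains ERK, DDC hepatocytes gave 35.0, 36.9 and 35.3 and reprogrammed hepatocytes 2.74, 0.814 and 5.05 (log2 difference -3.41, SE 0.527, adjusted p = 3.18e-05). Untreated hepatocytes gave 119, 66.1 and 42.6 and DDC biliary cells 0.962, 3.11 and 1.86, so the region was open in both hepatocyte groups and nearly without reads in DDC biliary cells. Lying 92.2 kb from Lef1, a transcription factor gene of the Wnt pathway, chr3:131017791-131018448 gave 21.8, 23.9 and 28.5 in DDC hepatocytes and 1.75, 0.407 and 2.31 in reprogrammed hepatocytes (log2 difference -3.45, SE 0.480, adjusted p = 8.92e-06). At 164 kb from Zic1, chr9:91193240-91194423 gave 18.8, 41.2 and 38.6 against 1.10, 1.22 and 4.62 (log2 difference -3.43, SE 0.539, adjusted p = 3.72e-05).

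**Figure D3:**
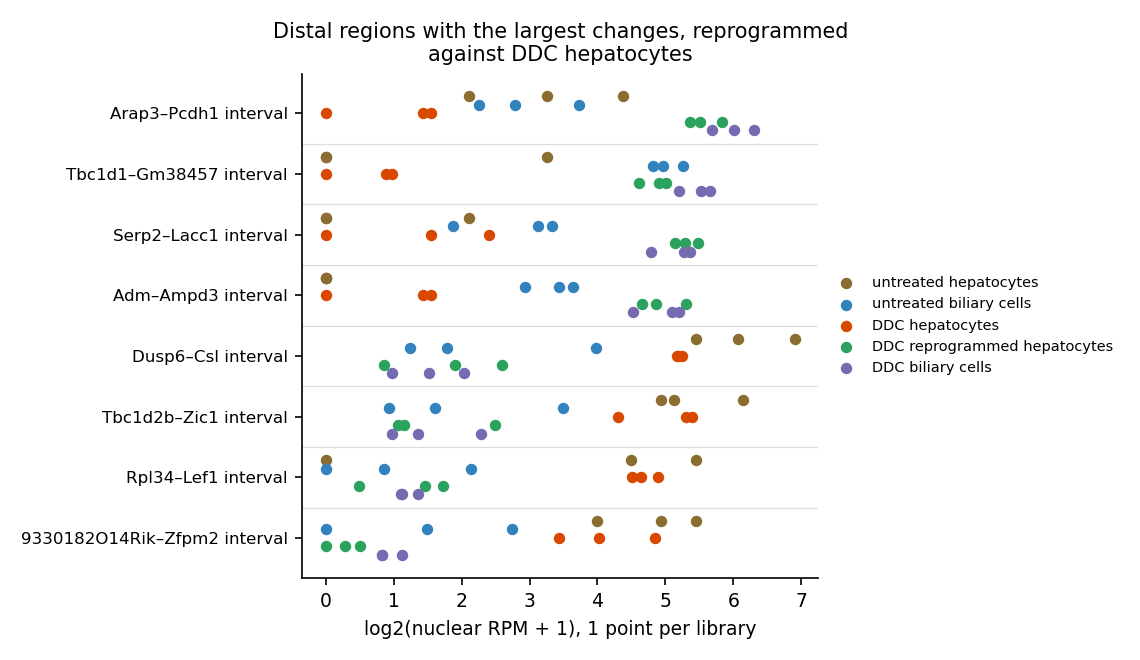
Level as log2(nuclear RPM + 1) (x axis) of the 8 members with the largest called differences between reprogrammed and DDC hepatocytes (y axis, named by the flanking genes), with 1 point per library and colours for the 5 groups. At the 4 regions that were higher, the reprogrammed libraries lie above all DDC hepatocyte libraries, and at the 4 that were lower they lie below them.

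Few members were called between reprogrammed hepatocytes and DDC biliary cells. Of 10415 tested 146 were called, 28 higher and 118 lower in reprogrammed hepatocytes (background 1.21%, 0.318% higher and 0.897% lower). The count depended on single libraries: it was 33, 4 and 68 without reprogrammed replicates 1, 2 and 3, and 8, 28 and 17 without DDC biliary replicates 1, 2 and 3. A fit over all 15 libraries called 0, with 708 members at an unadjusted p under 0.05, and edgeR called 431. The 15-library fit takes in the spread of the shallow untreated hepatocytes, so its 0 does not show that the 2 groups were alike. Of the 8 regions named for this comparison, 1 was called in all 6 fits that leave out a library, chr7:77888347-77889344, 291 kb from a gene, between Agbl1 and Ntrk3, the neurotrophin-3 receptor gene. It gave 18.2, 18.7 and 26.3 in reprogrammed hepatocytes and 1.15, 3.11 and 0.977 in DDC biliary cells (log2 difference 3.07, SE 0.384, adjusted p = 0.000541). DDC hepatocytes gave 17.1, 7.66 and 15.1, untreated biliary cells 2.27, 2.87 and 3.19, and untreated hepatocytes 1 read in all. All reprogrammed libraries lay above every library of the other groups.

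Members lower in reprogrammed hepatocytes included regions open in both biliary groups. Between Irx1 and Irx2, homeodomain genes of the Iroquois family, chr13:72197810-72199360 gave 5.26, 1.83 and 8.41 in reprogrammed hepatocytes and 31.8, 25.8 and 29.9 in DDC biliary cells (log2 difference -2.45, SE 0.423, adjusted p = 0.00512, up to 0.0822 when a library was left out). DDC hepatocytes gave 1.71, 0 and 1.68 and untreated biliary cells 11.3, 12.3 and 15.3. At chr10:91952697-91953634, between Tmpo and Nedd1, reprogrammed hepatocytes gave 3.84, 1.22 and 4.41 and DDC biliary cells 17.5, 21.7 and 20.4 (log2 difference -2.43, SE 0.410, adjusted p = 0.00484, and 0.0661 without reprogrammed replicate 2). In both regions reprogrammed hepatocytes stood between DDC hepatocytes and biliary cells and overlapped neither biliary group. Of 1759 intervals 72 were called, 16 higher and 56 lower (background 2.03%, 0.787% higher and 1.24% lower), 14 without reprogrammed replicate 2 and 11 without DDC biliary replicate 1. The interval between Odc1, which encodes the first enzyme of polyamine synthesis, and Hpcal1 was lower in reprogrammed hepatocytes, at 12.4, 9.36 and 9.25 against 36.6, 42.7 and 30.3 (log2 difference -1.73, SE 0.245, adjusted p = 0.00139), and kept its call without any single library. The interval between Tshz3 and Zfp536 was higher, at 30.0, 23.6 and 46.0 against 5.87, 9.51 and 8.89 (log2 difference 1.88, adjusted p = 0.0109), and lost its call without reprogrammed replicate 3 or DDC biliary replicate 1.

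DDC biliary cells and DDC hepatocytes differed at more members than any other of the 6 pairs compared. Of 10415 members tested, 5962 were called, 3702 higher and 2260 lower in biliary cells (background 50%, 28.6% higher and 21.4% lower). This comparison shares its libraries with the 3 above, so its values are given side by side with theirs. Between Fbxl7 and Ank, chr15:27340453-27342333 gave 2 reads in all 3 DDC hepatocyte libraries, as 0.854, 0 and 0, and 58.8, 48.7 and 46.3 nuclear RPM in DDC biliary cells (log2 difference 5.40, SE 0.313, adjusted p = 8.68e-12). Untreated biliary cells gave 60.5, 88.5 and 97.7 and reprogrammed hepatocytes 20.1, 9.56 and 17.7. Between Glul, the glutamine synthetase gene, and Zfp648, chr1:154112199-154113031 had no read in either hepatocyte group and gave 35.8, 24.8 and 23.0 in DDC biliary cells, at least 53.4-fold above DDC hepatocytes (log2 difference 4.83, SE 0.339, adjusted p = 2.19e-10). Reprogrammed hepatocytes gave 5.70, 4.88 and 6.94 there, above the hepatocytes and below both biliary groups.

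Among members lower in DDC biliary cells was chr8:35211400-35212383, between Tnks and Ppp1r3b, which encodes the liver's glycogen-targeting subunit of protein phosphatase 1. It gave 72.6, 74.7 and 67.1 in DDC hepatocytes and 2.31, 7.38 and 2.54 in DDC biliary cells (log2 difference -3.97, SE 0.490, adjusted p = 6.74e-07). Untreated hepatocytes gave 59.5, 47.9 and 85.2, reprogrammed hepatocytes 5.81, 5.29 and 10.3, and untreated biliary cells 9.45, 1.64 and 0.456. Between Tafa2 and the monocarboxylate transporter gene Slc16a7, chr10:123841589-123844159 gave 47.0, 64.2 and 51.2 against 1.44, 3.49 and 2.74 (log2 difference -3.99, SE 0.474, adjusted p = 4.1e-07), and 4.82, 1.83 and 7.99 in reprogrammed hepatocytes.

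Of 1759 intervals, 1031 were called, 611 higher and 420 lower (background 45.1%, 25.6% higher and 19.6% lower), and 864 higher and 282 lower on the deposited values. The 3 members between Fos, which encodes a subunit of AP-1, and Jdp2, a gene for a repressor of AP-1, summed to 2.99, 0.958 and 0 in DDC hepatocytes, 29.2, 24.9 and 13.7 in reprogrammed hepatocytes and 48.2, 28.9 and 33.6 in DDC biliary cells (biliary against hepatocytes 4.22, SE 0.407, adjusted p = 1.19e-07). The 9 members between the LIM cofactor gene Lmo4 and Hs2st1, a heparan sulfate sulfotransferase gene, went the other way, from 54.6, 80.4 and 105 in DDC hepatocytes to 5.77, 7.96 and 8.60 in DDC biliary cells (log2 difference -3.23, SE 0.331, adjusted p = 2.55e-07), with 6 of 8 members tested lower and 1 higher.

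The share of members called, and its direction, depended on level. Between DDC and untreated biliary cells, reprogrammed and DDC hepatocytes, and DDC biliary cells and DDC hepatocytes, the lowest share called was among the weakest members. In these 3 comparisons, each with the shallower group as reference, more members were higher than lower under 2 nuclear RPM, and fewer above 20. Of members under 2 nuclear RPM, 633 were higher and 167 lower in reprogrammed than in DDC hepatocytes, while above 20 nuclear RPM 138 were higher and 170 lower. Between DDC biliary cells and DDC hepatocytes these counts were 1128 and 252 under 2 nuclear RPM, and 150 and 192 above 20. Between DDC and untreated biliary cells they were 338 and 108 under 2, and 77 and 84 above 20. Between 5 and 20 nuclear RPM, 553 were higher and 196 lower in DDC than in untreated biliary cells. The excess of that comparison was thus not confined to the weakest members. In the same class the counts were 914 and 839 between reprogrammed and DDC hepatocytes, and 1030 and 1059 between DDC biliary cells and DDC hepatocytes. The part of depth in this was not tested. Of members at 20 nuclear RPM or more, 57.2% were called between reprogrammed and DDC hepatocytes, against 33.5% of other regions in that class. The class has no upper bound, so levels within it were not matched. Between DDC biliary cells and DDC hepatocytes the shares were 63.6% and 39.2%. In the comparison of DDC with untreated biliary cells the shares were 29.9% and 18.2%. Among regions of 1 to 2 nuclear RPM the shares were closer, 28.4% against 23.2%, 45.9% against 40.3% and 15.2% against 10.3% in the same order. The gap between members and other regions was thus wider among the 538 strongest members than among the weakest, as a description with no test.

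**Figure D4:**
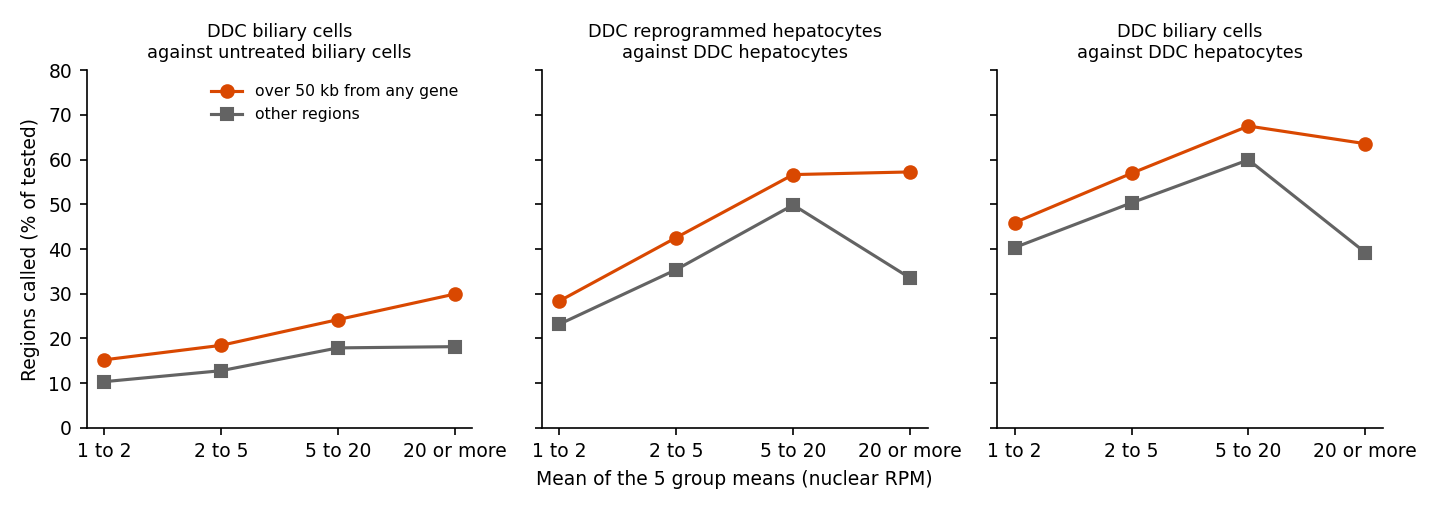
Percent of tested regions called at an adjusted p under 0.05 (y axis) by mean level in nuclear RPM (x axis, classes), for regions over 50 kb from genes (orange) and all other nuclear regions (grey), in 3 comparisons. At 20 nuclear RPM or more 57.2% of the distal regions and 33.5% of the others were called between reprogrammed and DDC hepatocytes.

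The untreated comparison shares no library with that of reprogrammed and DDC hepatocytes, so members called in the first could be followed in the second. Of the 1287 members higher in untreated biliary cells, 1264 were tested in the second comparison, and 652 (51.6%) were higher in reprogrammed hepatocytes and 6 lower, with a median log2 difference of 1.08, against 26.1% higher and a median of 0.33 over all members tested. These 652 made up 24.0% of the members higher in reprogrammed hepatocytes. Of the 688 lower in untreated biliary cells, 662 were tested, and 519 (78.4%) were lower and 3 higher, with a median of -1.76, against 16.8% lower over all members. They made up 29.7% of the members lower in reprogrammed hepatocytes. The members that DDC raised in biliary cells followed suit in part: 875 of 1537 (56.9%) were higher in reprogrammed than in DDC hepatocytes and 43 lower, with a median of 1.27. Of the 516 that DDC lowered in biliary cells, 119 were lower in reprogrammed hepatocytes and 69 higher.

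The motifs of the 452 promoter windows on members were counted as a description. TGANTCA was found in 61 windows (13.5%), against 7.81% of 32851 promoter windows and 9.31% of the 11589 windows of non-coding genes. GGAATG, the core that TEAD factors bind, was found on either strand in 90 windows (19.9%), against 14.7% of all and 16.6% of non-coding windows, and CAAAGTCCA in 4 (0.885%), against 0.475% of all. Among the 57 promoter members higher in DDC than in untreated biliary cells, 22 (38.6%) had an AP-1 match, against 3 of 31 lower (9.68%) and 33 of 293 not called (11.3%). The order was the same between reprogrammed and DDC hepatocytes, with 22 of 91 higher (24.2%), 5 of 63 lower (7.94%) and 31 of 227 not called (13.7%), and between DDC biliary cells and DDC hepatocytes, with 29 of 118 (24.6%), 7 of 83 (8.43%) and 22 of 180 (12.2%). In the untreated comparison it was not, with 5 of 41 higher, 3 of 29 lower and 50 of 311 not called. The members not called include those too weak to be tested. Of the 381 promoter members, 324 were tested in the untreated comparison and 356 in each of the others given here. A match says only that these letters are in the window, and a member often extends beyond it.

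**Figure D5:**
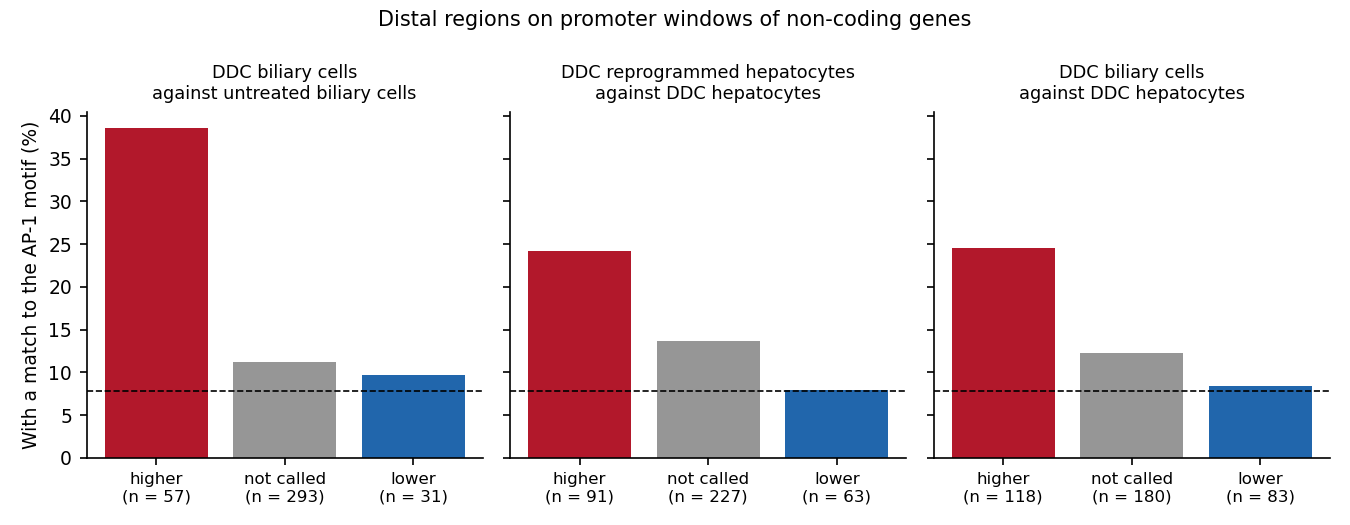
Percent of promoter members with an AP-1 match, TGANTCA, in a promoter window (y axis, from 0), by call (higher, not called, lower), in 3 comparisons. Members not called include those too weak to be tested. The dashed line marks the 7.81% of all RefSeq promoter windows with a match, and the tallest bar is the 38.6% of members higher in DDC than in untreated biliary cells.

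The 3 AP-1 windows printed above were chosen after their values were seen, and lie in regions that were higher in the first 2 of these comparisons. Not all of the 22 promoter members with a match that were higher in DDC biliary cells did so. Some were not called between reprogrammed and DDC hepatocytes, and the region of Gm8883 was lower in reprogrammed hepatocytes. Gm30657 starts in chr5:118413199-118414223, between Spring1 and Med13l, a gene of the Mediator kinase module. It gave 7.18, 4.10 and 1.82 nuclear RPM in untreated biliary cells, 53.3, 26.6 and 48.9 in DDC biliary cells, 5.12, 0.958 and 3.36 in DDC hepatocytes and 27.1, 24.6 and 20.4 in reprogrammed hepatocytes. DDC raised it in biliary cells (log2 difference 3.10, SE 0.404, adjusted p = 1.28e-05), and reprogrammed exceeded DDC hepatocytes (2.73, adjusted p = 1.92e-05). A530046M15Rik, with 3 matches, starts in chr13:15806695-15807305, between Gli3, a transcription factor of Hedgehog signalling, and Inhba, an activin subunit gene. That region gave 2.27, 0 and 0.456 in untreated biliary cells, 11.2, 5.82 and 12.2 in DDC biliary cells, 0.854, 0 and 0.839 in DDC hepatocytes and 6.69, 4.07 and 13.5 in reprogrammed hepatocytes. Both differences passed the test (2.62, SE 0.495, adjusted p = 0.000672 in biliary cells and 2.46, adjusted p = 0.000478 in hepatocytes).

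Morrbid, a non-coding RNA known to restrain the apoptosis gene Bcl2l11 in myeloid cells, starts in chr2:128427862-128429749. This region, between Bcl2l11 and Spdye4c, gave 3.02, 3.28 and 1.59 in untreated biliary cells, 18.2, 12.2 and 13.7 in DDC biliary cells, 1.28, 1.92 and 0 in DDC hepatocytes and 12.9, 7.94 and 7.57 in reprogrammed hepatocytes. DDC biliary cells lay above untreated biliary cells without overlap (log2 difference 2.13, SE 0.422, adjusted p = 0.00105), as did reprogrammed above DDC hepatocytes (2.44, adjusted p = 0.000107).

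Gm32646, which carries the HNF4 match, went the opposite way in the comparisons with DDC hepatocytes. Between DDC and untreated biliary cells it was not called (log2 difference 0.26, adjusted p = 0.825 by limma). Its region chr6:98402086-98403123, between Gm765 and the transcription factor gene Foxp1, gave 59.5, 19.8 and 25.5 in untreated hepatocytes, 5.29, 0 and 0 in untreated biliary cells, 28.2, 25.9 and 14.3 in DDC hepatocytes, 2.19, 2.85 and 8.83 in reprogrammed hepatocytes and 1.54, 1.16 and 0.977 in DDC biliary cells. It was lower in untreated biliary cells than in hepatocytes (-4.13, adjusted p = 0.0286), in reprogrammed than in DDC hepatocytes (-2.21, SE 0.561, adjusted p = 0.0033) and in DDC biliary cells than in DDC hepatocytes (-3.37, adjusted p = 2.98e-05). The other windows with that match are at Gm39608, Gm30117 and Gm30991. Of the 4 regions, 3 were lower in reprogrammed than in DDC hepatocytes, against 17.7% of promoter members and 16.8% of all members tested. The exception was Gm39608 (-0.33, adjusted p = 0.593). At Gm30991 the means were only 3.92 in DDC and 1.04 in reprogrammed hepatocytes (adjusted p = 0.045). Neither of these 2 had a read in untreated hepatocytes, whose floor is 2.88 nuclear RPM. At Gm30117, in chr17:85927488-85929146, 56.3 kb from Srbd1, the levels were 51.2, 54.1 and 73.9 in DDC hepatocytes, 24.2, 23.9 and 28.2 in reprogrammed hepatocytes (-1.19, adjusted p = 0.00175) and 9.81, 22.5 and 8.80 in DDC biliary cells (-2.15 against DDC hepatocytes, adjusted p = 1.29e-06).

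Members were also read by the genes that flank their interval, from 4 gene lists chosen with earlier results of these data known. Beside epithelial and biliary regulators lay 332 members in 21 intervals, which flank 16 of the 25 genes listed. Of 279 tested between reprogrammed and DDC hepatocytes, 95 were higher and 24 lower (34.05% and 8.60%, against 26.1% and 16.8% of all members, with a median log2 difference of 0.55, against 0.33 in all members and 0.19 in all regions), and 81 were higher and 20 lower without reprogrammed replicate 2. Of the 21 intervals 9 were higher and 1 lower (42.9% and 4.76%, against 26.2% and 19.4% of all intervals), and on the deposited values 17 and 0. Between DDC biliary cells and DDC hepatocytes 131 were higher and 35 lower (47.0% and 12.5%, against 35.5% and 21.7%, with a median of 0.86, against 0.45 in all members and 0.17 in all regions). Between DDC and untreated biliary cells 39 were higher and 14 lower (13.98% and 5.02%, near the 14.8% and 4.95% of all members, with a median of 0.17 against 0.13 and 0.07), and between untreated biliary cells and hepatocytes 51 higher and 14 lower of 241 (21.2% and 5.81%, against 13.9% and 7.45%, with a median of 0.60, against 0.22 and 0.29).

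Sox9, a transcription factor of bile duct cells, shares an interval with Slc39a11, and its 40 members summed to 204.5, 175 and 116 nuclear RPM in DDC hepatocytes, 283, 226 and 259 in reprogrammed hepatocytes and 274, 281 and 280 in DDC biliary cells. Reprogrammed exceeded DDC hepatocytes by 0.66 (SE 0.157, adjusted p = 0.00257), though not in the fit over all 15 libraries (adjusted p = 0.0826). In this comparison 12 members were higher and 1 lower, where 26.1% of all members tested were higher and 16.8% lower. DDC biliary cells exceeded DDC hepatocytes by 0.79 (adjusted p = 0.000359), with 18 higher and 3 lower, against 35.5% and 21.7% of all members. Untreated cells gave 243, 130.5 and 102 in hepatocytes and 258, 244 and 237 in biliary cells, and the first of these hepatocyte libraries lay within the biliary range. The 46 members between Prl5a1 and Sox4 gave no call as a sum in any comparison. Of them 9 were higher and 3 lower in reprogrammed than in DDC hepatocytes, against 26.1% and 16.8% of all members tested.

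Beside hepatocyte regulators and products lay 172 members in 16 intervals, which flank 12 of the 25 genes listed. Between reprogrammed and DDC hepatocytes 28 were higher and 36 lower (19.7% and 25.4%, against 26.1% and 16.8% of all members, with a median of 0.07). The counts were 26 and 22 without reprogrammed replicate 2 and 35 and 25 on the deposited values. Between untreated biliary cells and hepatocytes 7 were higher and 10 lower of 121 (median -0.25). That is 5.79% and 8.26%, against 13.9% and 7.45% of all members, so the lower share was near that of all members. The counts were 11 and 7 with TMM scaling and 32 and 2 on the deposited values. Between DDC biliary cells and DDC hepatocytes 37 were higher and 45 lower (26.1% and 31.7%, against 35.5% and 21.7% of all members, with a median of -0.14). On the deposited values 44 were higher and 36 lower. The direction of this list therefore turns with the scaling. Of its 16 intervals, 4 were higher and 4 lower between reprogrammed and DDC hepatocytes (25% and 25%, against 26.2% and 19.4% of all intervals). Between DDC biliary cells and DDC hepatocytes 5 were higher and 5 lower (31.25% and 31.25%, against 34.7% and 23.9%). In the untreated comparison 1 was higher and 5 lower (6.25% and 31.25%, against 10.1% and 8.46% of all genes and intervals). The 14 members between Wnt7b and Ppara were higher as a sum in untreated biliary cells than in untreated hepatocytes (log2 difference 0.86, adjusted p = 0.0118 by limma). They were also higher in DDC biliary cells than in DDC hepatocytes (0.34, adjusted p = 0.023). Reprogrammed against DDC hepatocytes gave no call there (0.20, adjusted p = 0.193). The interval of Foxa2, a pioneer factor of liver, and Pax1 holds 31 members, which summed to 174, 187 and 206 in DDC hepatocytes, 118.5, 103 and 132 in reprogrammed hepatocytes and 110, 118 and 106 in DDC biliary cells. Reprogrammed hepatocytes were lower by -0.68 (SE 0.140, adjusted p = 0.000849) and DDC biliary cells by -0.76 (adjusted p = 0.000179), with 3 members higher and 7 lower in the former, and both calls were lost on the deposited values (adjusted p = 0.195 and 0.0737).

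Beside genes of inflammation and injury lay 98 members in 14 intervals, which flank 12 of the 25 genes listed. DDC against untreated biliary cells raised 32 of 88 (36.4%) and lowered 2, with a median of 0.66, against 14.8% and 4.95% and a median of 0.13 over all members tested. It raised 6 of the 14 intervals (42.9%) and lowered 0, against 19.4% and 6.94% of all intervals. Between reprogrammed and DDC hepatocytes 26 were higher and 12 lower (29.5% and 13.6%, near the 26.1% and 16.8% of all members, with a median of 0.50). Tnfaip3, which encodes the inhibitor of NF-kB signalling A20, has 19 members on the side of Olig3. They summed to 59.7, 56.6 and 61.1 in untreated biliary cells and 101, 91.8 and 101 in DDC biliary cells, without overlap (log2 difference 0.72, SE 0.168, adjusted p = 0.00572, with 6 members higher and 0 lower). DDC hepatocytes gave 61.9, 59.4 and 50.4 and reprogrammed hepatocytes 89.2, 59.4 and 96.3, and that difference of 0.48 (adjusted p = 0.0302) was lost with TMM scaling (0.0795) and without reprogrammed replicate 1 (0.128) or 3 (0.145) or DDC hepatocyte replicate 3 (0.0759). The 44 members between Jun, another AP-1 subunit gene, and Fggy were not called as a sum (log2 difference 0.27, adjusted p = 0.0785), with 12 higher and 2 lower.

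Developmental regulators known for lying in gene deserts flanked more members than any other list, 753 in 58 intervals beside 41 of 42 genes. Between DDC and untreated biliary cells 68 of 608 were higher and 26 lower (11.2% and 4.28%, below the 14.8% and 4.95% of all members), and between reprogrammed and DDC hepatocytes 141 higher and 117 lower (23.2% and 19.2%, against 26.1% and 16.8%, with a median of 0.27, against 0.33 in all members). Between DDC biliary cells and DDC hepatocytes 197 were higher and 148 lower (32.4% and 24.3%, against 35.5% and 21.7%, with a median of 0.34). In reprogrammed hepatocytes 5 were higher and 11 lower than in DDC biliary cells (0.822% and 1.81%, against 0.269% and 1.13% of all members).

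Of the 5 intervals with the most members, 3 gave no call as a sum, while that beside Zmiz1, given above, and that beside Cited2 did. The 62 members between Myc, a growth-promoting transcription factor gene, and Gsdmc gave no call as a sum in any comparison. Of them 7 were higher and 12 lower in reprogrammed than in DDC hepatocytes, against 26.1% and 16.8% of all members tested. In DDC biliary cells 11 were higher and 15 lower than in DDC hepatocytes, against 35.5% and 21.7%. The 51 members between Klf14 and Mkln1 and the 51 between Agtr1b and Tbl1xr1 gave none either. The 54 members between Nmbr and Cited2, a transcriptional coregulator gene, were lower in DDC than in untreated biliary cells (log2 difference -0.64, adjusted p = 0.0246, 1 higher and 8 lower), but not without DDC biliary replicate 1 (adjusted p = 0.103), 3 (0.0769) or untreated biliary replicate 2 (0.106) or 3 (0.0613). Of all members tested there, 14.8% were higher and 4.95% lower.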

How the data were processed

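Open chromatin was measured by ATAC-seq in 15 libraries of sorted mouse liver cells, 3 in each of 5 groups taken from the labels. The submitters' processing notes list Bowtie2, SAMtools, MACS2, bedtools and the mm10 build, without order or version. The authors deposited 1 table of 93217 regions by library, named as TPM. Its values behave as RPM: the authors divided the reads of each region by the library's total over all regions, the mitochondrial chromosome included, and not by length, as far as the deposited values show. Values of up to 100 reads came out as whole reads in 100% of cases (tolerance 0.02 reads), so reads could be recovered from the deposited values, although in reprogrammed replicate 1, where 1 read is worth close to 0.1, the step is hard to tell from rounding. Columns were rescaled to 1000000 nuclear reads (nuclear RPM). Members were found by position against 21896 RefSeq protein-coding genes, and members and gene lists were chosen with earlier results of these data known.

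Tests used limma-trend (limma 3.58.1, R 4.3.3) on log2(nuclear RPM + 1), so fold changes of weak regions are understated. Features with a mean of at least 1 were kept, and p-values were adjusted by Benjamini-Hochberg over all nuclear regions, or over all genes and gene-poor intervals for sums. Comparisons with untreated hepatocytes used their 6 libraries and the others a 12-library fit without them. A feature was called at an adjusted p under 0.05. Named regions were the 4 highest and 4 lowest called log2 differences in each comparison whose 3 against 3 libraries did not overlap and whose higher group averaged at least 10 nuclear RPM. Others named were the 6 members of highest mean, the 3 farthest from genes, intervals by a like rule with at least 3 members, the 5 with most members, the 2 of highest mean in each list, and the non-coding genes of highest summed level. The regions at promoter windows printed were chosen after their values were seen. Some items that these rules select are not reported here. Single values were compared by exact permutation tests. Alternatives were TMM scaling, the deposited scaling, a pseudocount of 4, no filter, 1 fit of all 15 libraries, thinning, a replicate block, edgeR 4.0.16 on the recovered reads, and leaving out each library. Thinning whole pairs was added after seeing the data. Replicate numbers paired DDC biliary cells with DDC hepatocytes in the data, with correlations of the deviations of same-numbered libraries of 0.22, 0.17 and 0.11, and the block gave 6033 calls against 5962. Libraries of a group were not copies of each other, with chi-square per degree of freedom of 2.21 to 5.76 over 15 pairs.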

Additional observations from a re-analysis of the deposited data

Results flagged for a closer look

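DDC moved the share of nuclear reads at distal regions by -1.35 points in hepatocytes and by 0.753 points in biliary cells. Every DDC hepatocyte library lay below every untreated one, and every DDC biliary library above every untreated one. At chr6:101472704-101474044, 95.5 kb from Pdzrn3, DDC hepatocytes averaged 3.18 nuclear RPM and untreated hepatocytes had no read, with a floor of 2.88 nuclear RPM, while DDC biliary cells were all below untreated biliary cells. At chr18:38080200-38082875, between Arap3 and Pcdh1, DDC hepatocytes averaged 1.21 nuclear RPM, all below the untreated hepatocytes, while DDC biliary cells were all above untreated biliary cells. The differences between cell types in these responses were not tested, and the untreated hepatocytes are the shallowest libraries.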

How the results depend on the processing

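Depth limits most the comparisons with untreated hepatocytes, which have 201705 to 605309 nuclear reads. The share of reads at distal regions reversed sign with mitochondrial reads in the denominator, to 2.57 points for biliary cells against hepatocytes, 1.82 for DDC against untreated cells and 1.47 for reprogrammed against DDC hepatocytes. The share of regions detected at equal depth reversed when 2 reads were required (-2.86, -1.66 and -0.0127 points in the same order) and when pairs of reads were drawn (-0.738 and -0.871 points for the first 2), and for DDC was 2.22 points (p = 0.065 by the exact permutation test) beyond 100 kb.

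Counts of regions called, by limma unless edgeR is named, moved by over 1.5 times in these cases, whose cause was not tested. On the deposited values the untreated comparison gave 3482 regions and 974 intervals, DDC against untreated hepatocytes 1668 and 704, and reprogrammed hepatocytes against DDC biliary cells 331 regions. In 1 fit of all 15 libraries the counts were 3645 (untreated), 1230 (DDC against untreated hepatocytes), 505 (DDC against untreated biliary cells), 1947 (reprogrammed against DDC hepatocytes), 0 (reprogrammed hepatocytes against DDC biliary cells, with 708 at an unadjusted p under 0.05) and 3702 (DDC biliary cells against DDC hepatocytes) for regions, and 791, 290, 111, 433, 0 (174 unadjusted) and 669 for intervals. Thinning gave 531 regions and 113 intervals in the untreated comparison. A pseudocount of 4 gave 412 regions between reprogrammed hepatocytes and DDC biliary cells, and 5 intervals between DDC and untreated hepatocytes. With edgeR there were 144 regions and 82 intervals between DDC and untreated hepatocytes, and 431 and 152 between reprogrammed hepatocytes and DDC biliary cells. With a replicate block there were 4 regions in the untreated comparison, and 30 regions and 12 intervals between DDC and untreated hepatocytes. Same-numbered libraries were also correlated between reprogrammed hepatocytes and DDC biliary cells (0.33, 0.05 and 0.29). Between reprogrammed and DDC hepatocytes the values were 0.24, 0.04 and 0.19. In both pairs the value of number 2 lay below the highest between unlike numbers (0.13 and 0.07). The labels do not say what libraries of a number share, and the main tests used no pairing. The block moved no other count by over 1.5 times.

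Leaving out 1 library gave 1062 to 2778 regions and 55 to 506 intervals in the untreated comparison, 0 to 0 regions between DDC and untreated hepatocytes, 1082 to 1857 and 249 to 445 between DDC and untreated biliary cells, 3279 to 4332 and 626 to 809 between reprogrammed and DDC hepatocytes, 4 to 68 and 11 to 48 between reprogrammed hepatocytes and DDC biliary cells, and 4900 to 5786 and 881 to 1031 between DDC biliary cells and DDC hepatocytes. The lowest counts of intervals came without untreated biliary replicate 3 in the first of these, and without DDC biliary replicate 1 in the comparisons of DDC biliary cells with untreated biliary cells and with reprogrammed hepatocytes. Shares of reads ran from -0.738 to -0.504 (biliary against hepatocytes), -0.442 to -0.208 (DDC), -0.418 to 0.299 (reprogrammed against DDC hepatocytes) and -0.876 to -0.159 points (against DDC biliary cells), and detection from 4.62 to 5.90, 2.55 to 3.83, 3.05 to 6.54 and -3.62 to -0.133 points. Of 480 tests of the named regions and intervals with a library left out, 69 lost the call. None reversed under any alternative run, 19 of 80 lost it in the fit of 15 libraries, 5 with the block and 4 of 16 with thinning.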

Other observations

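Some non-coding genes held many distal regions along their length. Lncpint, a long non-coding RNA gene on chromosome 6 known as a target of p53, held 30. Their summed level was 312, 425 and 255 nuclear RPM in untreated hepatocytes, 190, 179 and 126 in untreated biliary cells, 234, 323 and 196 in DDC hepatocytes, 187, 133 and 173 in reprogrammed hepatocytes and 178, 178 and 172 in DDC biliary cells. Both hepatocyte groups lay above both biliary groups in every library, and 1 region was higher and 7 lower in DDC biliary cells than in DDC hepatocytes, where 35.5% of all distal regions tested were higher and 21.7% lower. On chromosome 13, 2610307P16Rik, which lies in the interval beside Sox4, held 37 regions, of which 8 were higher and 3 lower in reprogrammed than in DDC hepatocytes, where 26.1% of all distal regions were higher and 16.8% lower. A930011G23Rik on chromosome 5 held 30, of which 6 were higher and 2 lower in DDC than in untreated biliary cells, where 14.8% were higher and 4.95% lower.

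Open regions were found more than 2 Mb from any protein-coding gene. Of the 3 farthest with a mean of at least 1 nuclear RPM, chr18:28077504-28078259 lay 2187.7 kb away and was higher in DDC biliary cells than in DDC hepatocytes (log2 difference 1.59, adjusted p = 0.00542). At 2046.5 kb, chr18:27800772-27801333 was higher in untreated biliary cells than in untreated hepatocytes (2.21, adjusted p = 0.0293), in reprogrammed than in DDC hepatocytes (1.32, adjusted p = 0.0243) and in DDC biliary cells than in DDC hepatocytes (1.45, adjusted p = 0.0097).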
